A study of Mus musculus with 8 samples.

Results

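The genes described here are those named for small nuclear ribonucleoprotein particles (snRNPs) and related proteins, most of which belong to the spliceosome. They were chosen by a rule on names, set with earlier results of these data known. It took identifiers beginning with Snrp or Snrnp (Snrpa1 left out), with Prpf, or with Lsm and a digit (Lsm14a and Lsm14b left out). The rule found 41 genes among the 20461 identifiers of the expression tables, and all 41 passed the filter on low values that left 11867 genes for testing. Lsm8 is not listed under that name. Its RefSeq transcript is listed as Naa38, which is therefore described apart from the 41. The cells were mouse embryonic stem cells from Htatsf1 flox/flox CreERT2 mice (tatsf1 in the labels), cultured on embryonic fibroblast feeders. HTATSF1 is an RNA-binding protein that associates with the U2 snRNP, and tamoxifen activates the CreERT2 recombinase that deletes its floxed gene. Messenger RNA was sequenced in 4 groups of 2 libraries: ethanol (the control) for 48 h, tamoxifen for 48 h, ethanol for 72 h and tamoxifen for 72 h. All 4 groups carry the floxed allele and CreERT2. The comparison asks how RNA levels differ when the deletion has been induced. No group with tamoxifen but without recombination was analysed here, so the drug and the deletion cannot be told apart. The labels do not say whether replicates were separate cultures, so the p-values here reflect only how far these libraries scatter, which may be technical. The promoter that drives CreERT2 and the number of cell lines are not given in the sources used here.

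An intron is removed in cycles of snRNP binding: U1 recognises the 5′ splice site, U2 the branch point, and a preassembled U4/U6.U5 particle then joins and is rearranged into the active enzyme. The Sm proteins form a ring around U1, U2, U4 and U5 RNA, while the related LSm2-8 ring binds the 3′ end of U6. Prpf genes are named after yeast mutants in pre-mRNA processing, and their products act in several different particles. A few LSm proteins act outside splicing, in histone mRNA processing or mRNA decay.

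Htatsf1 stood at 23.0 and 21.7 FPKM (fragments per kilobase of transcript, scaled to library depth) in the 48 h ethanol libraries and at 4.13 and 3.78 with tamoxifen. At 72 h it stood at 22.7 in both ethanol libraries and at 4.12 and 4.63 with tamoxifen, so it was low in every library labelled tamoxifen. The FPKM values and their upper confidence limits imply about 8990000 to 16800000 fragments per library. This takes the distance from value to limit as 2 SD of a Poisson count. The cultures held RNA of stem cells and fibroblasts. The summed level of 10 stem cell markers was 3187 to 3269 FPKM (ethanol) and 3056 to 3154 (tamoxifen) at 48 h, and 4227 to 4366 and 3345 to 3817 at 72 h. The summed level of 20 fibroblast markers was 601 to 637 FPKM with ethanol and 892 to 893 with tamoxifen at 48 h, and 688 to 715 and 1341 to 1416 at 72 h. None of the 20 was at 0, and 19 of them rose with tamoxifen at each time. In the tamoxifen comparison, 1 of the 10 stem cell markers fell at 48 h and 6 fell at 72 h. The 8 primitive endoderm markers summed to 7.52 to 8.84 FPKM (ethanol) and 8.75 to 9.38 (tamoxifen) at 48 h, and to 13.4 to 14.2 and 17.1 to 17.3 at 72 h. Of the 5 tested, 1 rose with tamoxifen at 48 h, Pdgfra, which is also 1 of the 20 fibroblast markers and counted there. At 72 h 3 rose (Pdgfra, Dab2 and Gata6) and 1 fell (Lama1). Sox17, Sox7 and Foxa2 were under 1 FPKM in all 8 libraries. The 8 trophoblast markers summed to 54.9 to 58.2 and 64.7 to 67.5 FPKM at 48 h, and to 121 to 122 and 129.5 to 136 at 72 h. Of the 5 tested, 2 rose at 48 h (Tfap2c and Krt8). At 72 h 3 rose (Krt8, Hand1 and Krt18) and 1 fell (Tfap2c), while Cdx2 and Elf5 were under 1 FPKM throughout. Markers of all 4 lists thus moved with tamoxifen, and their part in the results on snRNP genes was not tested. In such mixed RNA, fewer cells of a type and less RNA per cell cannot be told apart.

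The 41 genes together gave 3458 to 3908 FPKM per library. Their median was 42.5 to 61.6 FPKM, against 9.48 to 11 for all genes tested. FPKM is scaled by transcript length, which allows a rough comparison of levels between genes. Near-identical pseudogenes were found for 9 of the 14 Sm and LSm2-8 ring genes, Snrpg and Lsm6 among them. Their levels are uncertain to that extent. The 7 genes of the Sm ring (Snrpb, Snrpd1, Snrpd2, Snrpd3, Snrpe, Snrpf and Snrpg) gave 47.3 to 51.6% of the sum. Each Sm ring holds 1 copy of each protein, and the highest Sm gene exceeded the lowest in the same library by 1.70 to 2.52 times. The LSm2-8 genes were less even: Lsm4 was the highest and Lsm6 the lowest of the 6 listed in every library, 4.83 to 8.40 times apart. Over the 8 libraries Snrpg had the highest mean of all 41, at 385 FPKM, and Lsm11 the lowest, at 3.84. Lsm11 belongs with Lsm10 to the U7 snRNP, which processes histone mRNA 3′ ends and not introns. The 3 genes of the U11 particle of the minor spliceosome were also low, with means of 6.04 for Snrnp35, 19.9 for Snrnp25 and 20.2 for Snrnp48.

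**Figure D1:**
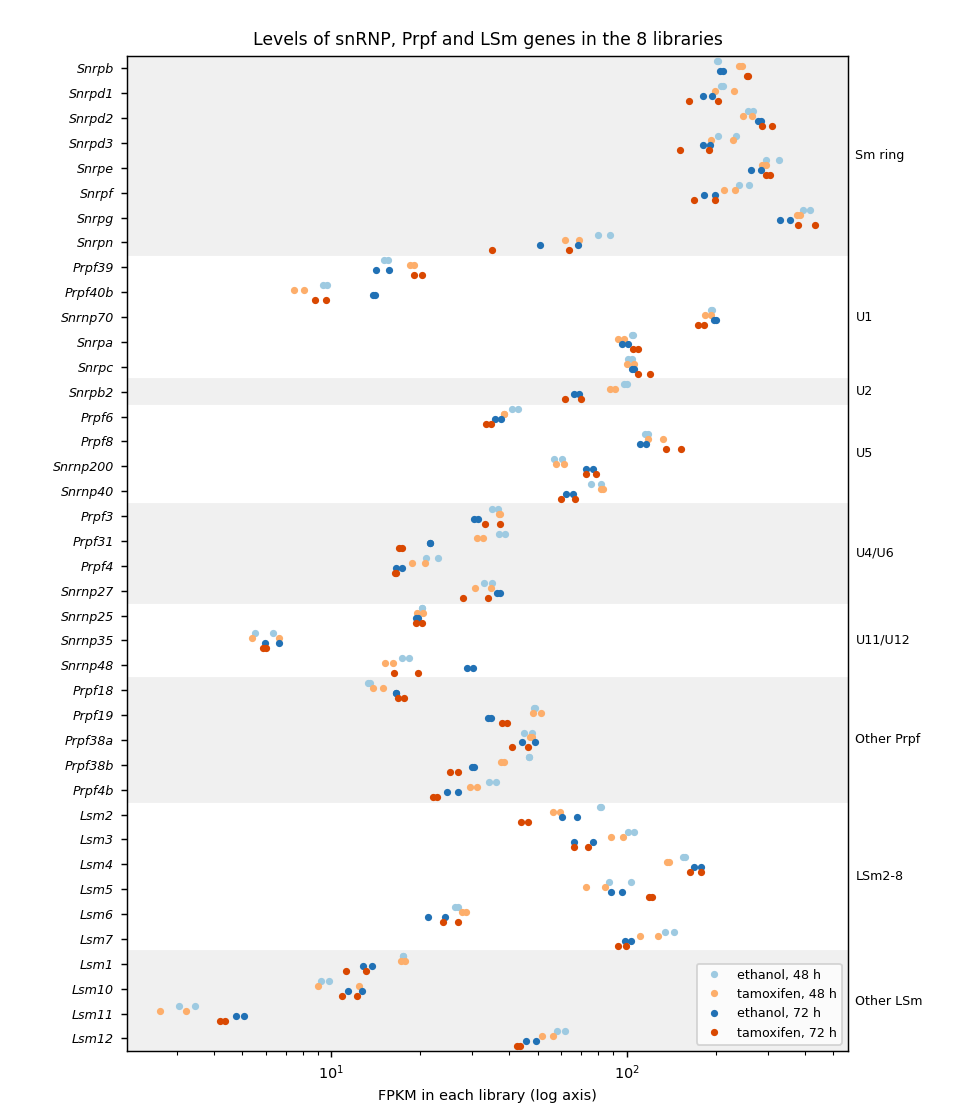
Level of 40 of the 41 genes in each library (FPKM, log axis), grouped by particle; every point is 1 library and colours give treatment and time. The Sm genes other than Snrpn sit at the right, between 151 and 435 FPKM, and Lsm11 at the left, between 2.62 and 5.08.

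Replicates differed little for most of the genes. The median absolute log2 difference between the 2 libraries of a group was 0.06 to 0.11 for the 41 genes and 0.08 to 0.10 for all genes tested. The 72 h tamoxifen pair was the least even: 4 genes differed by more than 0.25 (Snrnp27, Snrpd1, Snrpd3 and Snrpn), and replicate 1 was the lower for 28 of 41. The largest difference in that pair was 0.85, for Snrpn.

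The promoters of these genes are shown by 4 examples. Prpf38b and Prpf39 moved in opposite directions at both times. Lsm5 and Snrnp48 were called for a difference of the tamoxifen change between the times, with neither call kept under every alternative run. These 4 were chosen after their values were seen. Each line gives 80 bases upstream of the annotated RefSeq start (GRCm38.p6), free of annotated exons, on the strand of the gene and 5′ to 3′. Capitals mark matches to the motifs searched, on either strand. The windows are, in order, chr3:108911730-108911809 (minus strand), chr12:65036253-65036332 (plus), chr6:56704711-56704790 (minus) and chr13:38204858-38204937 (plus).
Prpf38b: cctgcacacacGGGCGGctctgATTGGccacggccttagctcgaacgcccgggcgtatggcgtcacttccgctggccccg
Prpf39: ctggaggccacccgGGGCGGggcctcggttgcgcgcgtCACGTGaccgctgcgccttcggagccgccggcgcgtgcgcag
Lsm5: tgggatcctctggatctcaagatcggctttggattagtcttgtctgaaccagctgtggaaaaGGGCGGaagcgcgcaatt
Snrnp48: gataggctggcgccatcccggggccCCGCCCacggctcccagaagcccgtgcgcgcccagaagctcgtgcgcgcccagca

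Each of the 4 windows holds a GC box (GGGCGG, or CCGCCC on the other strand). The window of Prpf38b also holds a CCAAT box, read on the opposite strand, and that of Prpf39 an E-box (CACGTG). Promoters of the full length in the table (before and just after the start) were matched for 33 of the 41 genes. Of these, 69.7% held a GC box, against 71.9% of the promoters of tested genes and 38.2% of all promoters. The ETS motif CCGGAAG was found in 33.3%, against 20.3% and 9.93%. CCAAT was found in 45.5% (43.3% and 41.1%), CACGTG in 12.1% (12.2% and 8.09%) and TATAAA in 9.09% (8.47% and 15.7%). Both strands were searched for each motif. These matches describe letters in the windows, and no factor's binding was measured.

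With tamoxifen the 41 genes did not move as a block: 2 rose and 5 fell at 48 h, and 6 rose and 8 fell at 72 h. At 48 h the rises were Prpf39 and Snrpb, and the falls included Lsm2, Prpf31, Prpf38b and Prpf40b. Each of the 7 genes called at 48 h was called again, in the same direction, among the 14 at 72 h. The other 7 of the 14 were Lsm5, Prpf19, Prpf8 and Snrpg, which rose, and Prpf4b, Snrnp48 and Snrnp70, which fell. A call means a Benjamini-Hochberg adjusted p of at most 0.05 in limma over all genes tested. Of all genes tested, 7.88% rose and 4.47% fell at 48 h, and 20.1% rose and 18.5% fell at 72 h. The corresponding shares of the 41 were 4.88% and 12.2%, then 14.6% and 19.5%. The median log2 change of the 41 was -0.08 at 48 h (all genes 0.02) and -0.05 at 72 h (all genes -0.01). All called changes were modest, between -0.69 and 0.38 on the log2 scale of FPKM + 1. The 48 h calls rest on few libraries: without either ethanol replicate, or without tamoxifen replicate 2, only Lsm2 among the 41 stayed called, and without tamoxifen replicate 1, 1 rose and 3 fell. At 72 h the call of 8 genes, Lsm2, Prpf31, Prpf39, Prpf40b, Prpf8, Snrnp48 and Snrpb among them, was kept under every alternative run, each library left out included.

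**Figure D2:**
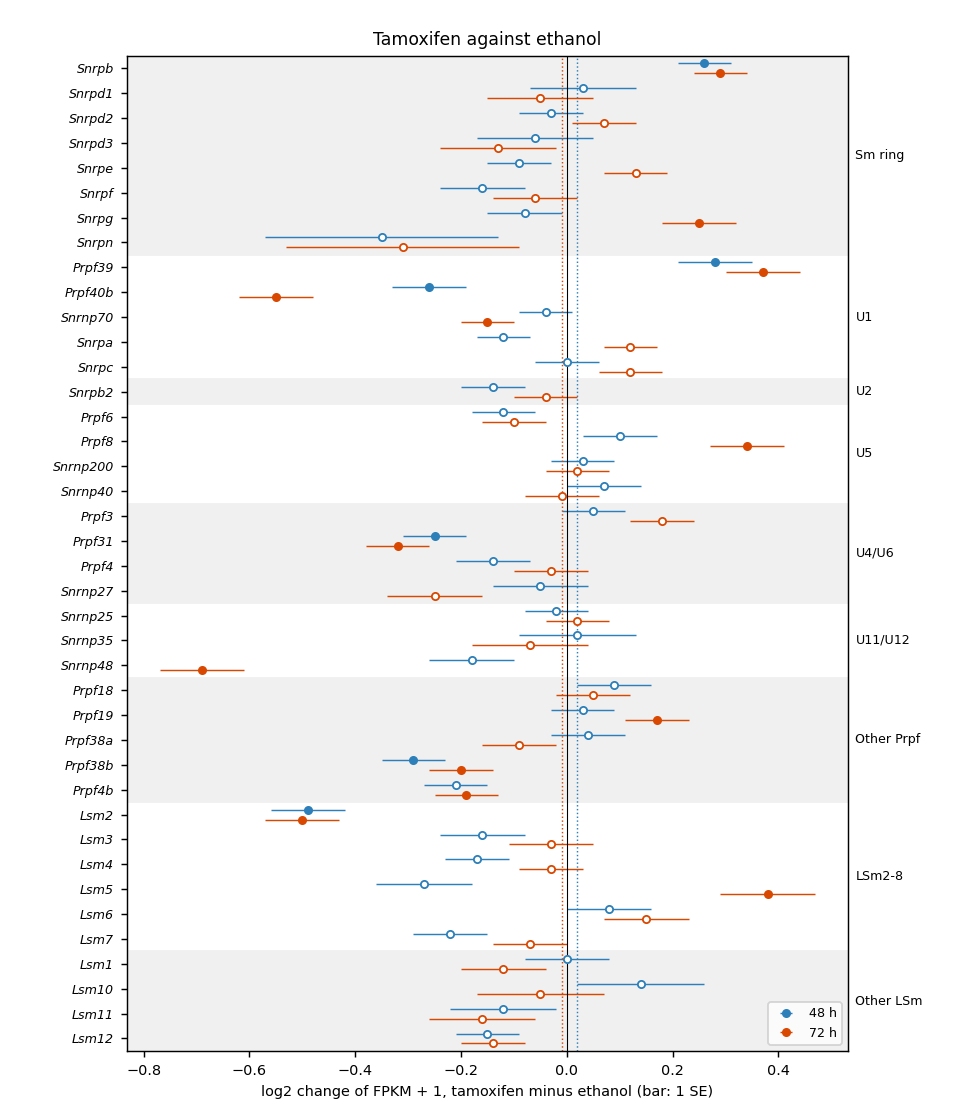
Change with tamoxifen against ethanol for 40 of the 41 genes (log2 of FPKM + 1, bar 1 SE), at 48 h (blue) and 72 h (orange), 2 libraries a group. Filled points are called and open points are not; dotted lines are the medians of all genes tested. Snrnp48 lies farthest to the left at 72 h (-0.69), and Lsm5 lies left of 0 at 48 h (-0.27) and right of it at 72 h (0.38).

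Within the Sm ring the change was uneven, with Snrpb higher and most partners near their ethanol level. Snrpb encodes SmB/B′, and its pre-mRNA is known to be alternatively spliced in response to Sm protein supply. Snrpb stood at 203 and 202 FPKM with ethanol and 240 and 246 with tamoxifen at 48 h, and at 207 and 211 against 256 and 257 at 72 h. All 4 tamoxifen libraries were above all 4 ethanol libraries. Snrpb rose by 0.26 ± 0.05 (log2, SE; adjusted p = 0.00732) at 48 h and by 0.29 ± 0.05 (adjusted p = 0.00102) at 72 h. Snrpg, which encodes SmG, stood at 416 and 394 against 386 and 378 FPKM at 48 h, and at 331 and 356 against 381 and 435 at 72 h. The tamoxifen libraries were thus the lower pair at 48 h and the higher pair at 72 h. The 72 h change of Snrpg was 0.25 ± 0.07 (adjusted p = 0.019), and it lost its call without ethanol replicate 1 (adjusted p = 0.123) or tamoxifen replicate 2 (0.111). Snrpd3, which encodes SmD3, stood at 204 and 234 against 228 and 192 FPKM at 48 h and at 181 and 191 against 151 and 190 at 72 h. Its groups overlapped at both times, and neither change (-0.06 ± 0.11 and -0.13 ± 0.11) was called. The 4 remaining ring genes, Snrpd1, Snrpd2, Snrpe and Snrpf, had changes of -0.16 to 0.13 at the 2 times and were not called in limma. The authors' deposited table has Snrpf lower with tamoxifen at 48 h (-0.27, adjusted p = 0.00175) and at 72 h (-0.20, adjusted p = 0.00988). It also has Snrpd3 lower at 48 h (-0.22, adjusted p = 0.00348).

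Among the U1 genes the core proteins changed little and the proteins named after yeast U1 partners changed more. Prpf40b encodes a mammalian counterpart of yeast Prp40, which contacts factors at both ends of the intron. Prpf40b was a low gene, at 9.63 and 9.38 FPKM against 7.46 and 8.07 at 48 h and 13.8 and 14.1 against 9.58 and 8.79 at 72 h. Its groups did not overlap at either time. Prpf40b fell by 0.26 ± 0.07 (adjusted p = 0.0454) at 48 h, a call lost under 5 other settings that kept all libraries of the comparison (adjusted p 0.0523 to 0.0760), and by 0.55 ± 0.07 (adjusted p = 0.000317) at 72 h. Prpf39, the counterpart of yeast U1 protein Prp39, moved the other way: 15.1 and 15.5 FPKM against 19.1 and 18.5 at 48 h, and 14.2 and 15.7 against 19.0 and 20.2 at 72 h. All 4 tamoxifen libraries were above all 4 ethanol libraries. Prpf39 rose by 0.28 ± 0.07 (adjusted p = 0.0242) and by 0.37 ± 0.07 (adjusted p = 0.00211). The authors' deposited table has Prpf39 higher at 48 h (0.26, adjusted p = 0.0123) and not called at 72 h (0.18, adjusted p = 0.0985). The 3′ end of Prpf39 overlaps that of Fkbp3, an abundant gene that fell at 72 h (-0.38 ± 0.08, adjusted p = 0.00371), and how their shared fragments were divided was not tested.

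Snrnp70, the U1-70K protein that contacts the U1 stem loop, stood at 194 and 193 FPKM against 184 and 192 at 48 h and at 200 and 197 against 183 and 174 at 72 h. Tamoxifen libraries were lower at both times, by a small margin at 48 h. Snrnp70 fell at 72 h by 0.15 ± 0.05 (adjusted p = 0.0399), a call that was lost without either ethanol library (adjusted p 0.139 without the first, 0.103 without the second), without tamoxifen replicate 2 (0.150), with no trend (0.0948) and with the 72 h groups fitted alone (0.102). Snrpa, the A protein of the U1 particle, stood at 105 and 104 against 98.0 and 93.7 FPKM at 48 h and at 101 and 96.3 against 109 and 105 at 72 h. The pairs were apart in opposite directions at the 2 times, and none of the tests was passed: -0.12 ± 0.05 (adjusted p = 0.16), 0.12 ± 0.05 (adjusted p = 0.101), and 0.24 ± 0.07 (adjusted p = 0.105) for the difference. Snrpc, which encodes the C protein of that particle, was not called at either time, with changes of 0.00 and 0.12.

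The large U5 proteins were split between Prpf8 and the rest. Prpf8 lies at the catalytic centre of the spliceosome. It stood at 118 and 115 FPKM with ethanol and 118 and 133 with tamoxifen at 48 h, where the groups overlapped, and at 116 and 111 against 152 and 136 at 72 h, where they did not. Prpf8 rose by 0.34 ± 0.07 (adjusted p = 0.00423) at 72 h, and its 48 h change was 0.10 ± 0.07 (adjusted p = 0.386). Snrnp200, the helicase Brr2 that unwinds U4 from U6, stood at 60.2 and 56.6 against 57.8 and 61.1 FPKM at 48 h and at 76.6 and 72.5 against 78.5 and 72.5 at 72 h. Treatment groups of Snrnp200 overlapped at both times, and its changes were 0.03 ± 0.06 and 0.02 ± 0.06. Prpf6, a bridge between U5 and U4/U6, stood at 40.9 and 42.9 against 38.4 and 38.3 FPKM at 48 h and at 35.8 and 37.5 against 34.8 and 33.4 at 72 h. Tamoxifen libraries of Prpf6 were the lower pair each time, but -0.12 ± 0.06 (adjusted p = 0.183) and -0.10 ± 0.06 (adjusted p = 0.18) were not called. Snrnp40, another U5 protein, had changes of 0.07 and -0.01. The U2 protein kept by the naming rule, Snrpb2 (U2B″), stood at 97.9 and 99.9 against 91.0 and 88.0 FPKM at 48 h and at 66.1 and 68.9 against 61.8 and 70.0 at 72 h. Its groups were apart at 48 h and overlapped at 72 h, and neither change (-0.14 ± 0.06, -0.04 ± 0.06) was called.

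Of the U4/U6 genes, Prpf31 fell and the others were not called. Prpf31 binds U4 RNA and holds the tri-snRNP together. It stood at 37.0 and 38.7 FPKM against 31.0 and 32.6 at 48 h, and at 21.6 in both ethanol libraries against 16.9 and 17.4 at 72 h. Both pairs of groups were apart. Prpf31 fell by 0.25 ± 0.06 (adjusted p = 0.0216) at 48 h and by 0.32 ± 0.06 (adjusted p = 0.00204) at 72 h. Prpf3, its U4/U6 partner, stood at 35.0 and 36.6 against 37.1 and 36.8 FPKM at 48 h and at 31.3 and 30.5 against 37.1 and 33.1 at 72 h. Tamoxifen libraries of Prpf3 were slightly higher at both times, without passing the test (0.05 ± 0.06, adjusted p = 0.691; 0.18 ± 0.06, adjusted p = 0.054). Prpf4, the third U4/U6 protein, had changes of -0.14 and -0.03. Snrnp27, a tri-snRNP protein, had -0.05 at 48 h and -0.25 at 72 h (adjusted p = 0.0506), with all 72 h tamoxifen libraries lower.

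The clearest change in the minor spliceosome genes was in Snrnp48, a protein of the U11/U12 particle that takes part in recognising the 5′ splice site of rare U12-type introns. Snrnp48 stood at 18.3 and 17.4 FPKM against 16.2 and 15.2 at 48 h, and at 28.8 and 30.1 against 16.3 and 19.6 at 72 h. The 72 h ethanol pair was above all 6 other libraries, which lay between 15.2 and 19.6. At 72 h Snrnp48 fell by 0.69 ± 0.08 (adjusted p = 0.000164), and the 48 h change of -0.18 ± 0.08 (adjusted p = 0.201) was not called. Snrnp25 and Snrnp35, of the same particle, had changes between -0.07 and 0.02 and were not called.

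Among the remaining Prpf genes, Prpf38b fell at both times, Prpf4b fell and Prpf19 rose at 72 h, and Prpf18 and Prpf38a were not called. Prpf38b, which is related to the tri-snRNP factor Prp38, stood at 46.5 and 46.6 FPKM against 38.4 and 37.5 at 48 h and at 30.0 and 30.4 against 25.3 and 26.9 at 72 h. Its groups were apart at both times. Prpf38b fell by 0.29 ± 0.06 (adjusted p = 0.00959) and by 0.20 ± 0.06 (adjusted p = 0.0161); the 72 h call was lost without either ethanol library (adjusted p 0.0523 and 0.0755 without replicates 1 and 2) and without tamoxifen replicate 1 (0.0849). Prpf4b, a kinase that phosphorylates tri-snRNP proteins, stood at 34.2 and 36.0 against 29.5 and 31.1 FPKM at 48 h and at 24.6 and 26.8 against 22.8 and 22.0 at 72 h. Tamoxifen was lower in both pairs. Prpf4b fell by 0.19 ± 0.06 at 72 h (adjusted p = 0.0403), a call lost without ethanol replicate 2 (0.235), without either tamoxifen library (0.0704 and 0.132) and under 3 other settings (0.0509 to 0.0769), and its 48 h change was -0.21 ± 0.06 (adjusted p = 0.0629). Prpf19, the ubiquitin ligase of the complex that activates the spliceosome, stood at 48.4 and 48.9 against 51.4 and 48.0 FPKM at 48 h and at 34.6 and 33.8 against 37.9 and 39.4 at 72 h. Its groups overlapped at 48 h and were apart at 72 h. The 72 h rise of Prpf19 was 0.17 ± 0.06 (adjusted p = 0.0353), a call lost without any 1 of the 4 libraries compared (adjusted p 0.0511 to 0.140) and under 3 other settings, median-ratio scaling among them (0.0568 to 0.0740).

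The LSm2-8 ring held Lsm2, whose 48 h call was kept without any 1 library, and Lsm5, whose 2 changes had opposite signs. Only the 72 h change of Lsm5 was called, and the call for the difference between the times was not kept under every alternative run. Lsm2 stood at 81.0 and 82.0 FPKM with ethanol and 59.6 and 56.1 with tamoxifen at 48 h, and at 68.0 and 60.2 against 46.4 and 43.8 at 72 h. Every tamoxifen library of Lsm2 was below every ethanol library. Lsm2 fell by 0.49 ± 0.07 (adjusted p = 0.00183) and by 0.50 ± 0.07 (adjusted p = 0.000331), to 0.710 and 0.704 of the ethanol mean. Lsm5, another subunit of the same ring, stood at 87.1 and 103 against 72.7 and 84.3 FPKM at 48 h and at 96.5 and 88.6 against 122 and 119 at 72 h. The tamoxifen pair was the lower at 48 h and the higher at 72 h. Lsm5 rose at 72 h by 0.38 ± 0.09 (adjusted p = 0.00753; 0.0592 without ethanol replicate 2), after a 48 h change of -0.27 ± 0.09 (adjusted p = 0.075). Lsm3, Lsm4, Lsm6 and Lsm7 were not called, with changes of -0.22 to 0.08 at 48 h and -0.07 to 0.15 at 72 h. Naa38, the entry that holds the Lsm8 transcript, stood at 69.5 and 79.7 against 71.0 and 68.2 FPKM at 48 h and at 63.6 and 64.4 against 54.3 and 61.2 at 72 h. Neither of its changes was called in limma (-0.10 ± 0.08 and -0.15 ± 0.08). The authors' deposited table has Naa38 lower with tamoxifen at 72 h (-0.22, adjusted p = 0.0474) and not called at 48 h (-0.19, adjusted p = 0.133).

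The LSm genes outside that ring were not called in either tamoxifen comparison. Lsm11, of the U7 snRNP, stood at 3.05 and 3.46 FPKM against 2.62 and 3.22 at 48 h, where the groups overlapped, and at 5.08 and 4.74 against 4.19 and 4.35 at 72 h, where tamoxifen was lower. Its changes were -0.12 ± 0.10 (adjusted p = 0.485) and -0.16 ± 0.10 (adjusted p = 0.232). Lsm1, which replaces the U6-specific subunit in the cytoplasmic ring that takes part in mRNA decay, had changes of 0.00 and -0.12. Lsm10 had 0.14 and -0.05, and Lsm12 had -0.15 and -0.14.

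Snrpn needs separate treatment. It encodes SmN, a relative of SmB expressed from the paternal allele, and its transcript also carries the upstream reading frame Snurf, which the tables list as a gene of its own. Snrpn stood at 80.1 and 87.5 FPKM against 62.0 and 68.9 at 48 h and at 50.7 and 68.1 against 63.8 and 34.9 at 72 h. Snurf stood at 58.4 and 53.3 against 60.8 and 47.6 FPKM, and at 19.4 and 6.57 against 11.6 and 40.0. At 72 h the replicates of each gene differed widely, and the library with the lower Snrpn of each pair had the higher Snurf. Added together, the 2 entries gave 138 and 141 against 123 and 116 FPKM at 48 h, and 70.1 and 74.7 against 75.4 and 74.9 at 72 h. The sum, an alternative chosen after seeing the data, varied far less between replicates than either entry. Taken alone, Snrpn had changes of -0.35 ± 0.22 (adjusted p = 0.328) and -0.31 ± 0.22 (adjusted p = 0.29). With the 48 h groups fitted alone in limma, the 48 h change of Snrpn was called (-0.35, adjusted p = 0.0164). The sum fell by 0.22 ± 0.05 at 48 h (adjusted p = 0.0244), and its 72 h change was 0.05 ± 0.05 (adjusted p = 0.455). Between 48 h and 72 h the sum fell by 0.94 ± 0.05 with ethanol and by 0.66 ± 0.05 with tamoxifen. The authors' deposited table gives Snrpn as mean scaled counts of 3.53 (ethanol) and 2.65 (tamoxifen) at 48 h and of 1.93 and 2.34 at 72 h, against 2808 for Snrpb in ethanol at 48 h, and its adjusted p for Snrpn is 1 at both times.

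**Figure D3:**
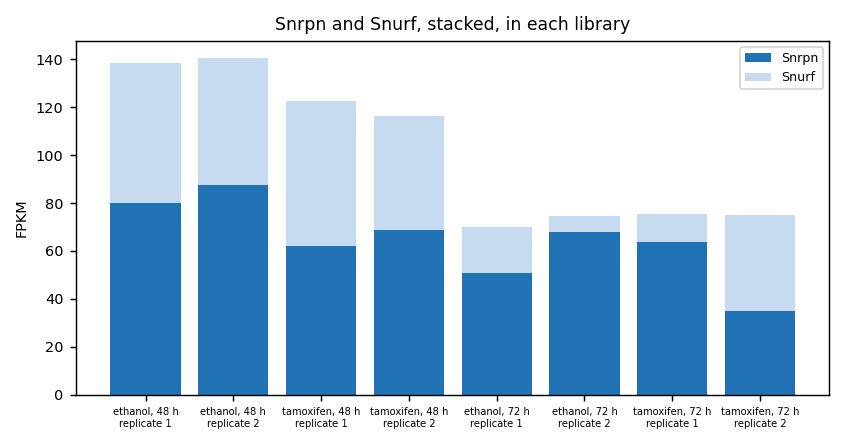
FPKM of Snrpn (dark) and Snurf (light) stacked in each of the 8 libraries. The division between the entries varies at 72 h, with Snurf between 6.57 and 40.0, while the summed height stays between 70.1 and 75.4 in those 4 libraries and between 116 and 141 at 48 h.

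Whether tamoxifen acted differently at the 2 times was tested by the difference of the changes. Of the 41 genes 1 was called higher and 1 lower, against 2.00% and 1.45% of all genes tested. Lsm5 had a difference of 0.65 ± 0.13 (adjusted p = 0.0283) and Snrnp48 one of -0.52 ± 0.12 (adjusted p = 0.0441). Neither call was kept throughout: that of Lsm5 was lost on leaving out any library (adjusted p 0.0514 to 0.101) other than ethanol 48 h replicate 1 and tamoxifen 48 h replicate 2. The call of Snrnp48 was lost on leaving out any library (0.0694 to 0.148) other than tamoxifen 72 h replicate 2. With no filter on low values the adjusted p was 0.0873 for Lsm5 and 0.101 for Snrnp48, and with no trend 0.0661 and 0.0837. The other 39 genes had differences of -0.29 to 0.33 and were not called.

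As among all genes tested, more of the 41 were called with time in culture (25 under each treatment) than with tamoxifen. Most of the time calls were falls for the 41 and rises for all genes tested. From 48 h to 72 h in ethanol, 19 of the 41 fell and 6 rose, against 19.2% and 38.0% of all genes tested; the shares of the 41 were 46.3% and 14.6%. In the tamoxifen cultures 16 fell and 9 rose, against 19.6% and 37.5% of all genes. Under median-ratio scaling of the libraries, which shifted the median of all genes by 0.11 (ethanol) and 0.10 (tamoxifen), 24 fell and 4 rose in ethanol and 22 fell and 4 rose in tamoxifen. The share of rises among calls went from 36% to 15.4% in tamoxifen with that scaling. Relative to the median of all genes, the median of the 41 was lower by 0.29 and 0.20 (log2), a difference given as a description. The names of the deposited tables carry a number that differs between the 48 h and the 72 h libraries, and what it marks cannot be told apart from time. Cell type markers moved with time as well. Of 10 stem cell markers 5 rose and 3 fell in ethanol, and 4 rose and 5 fell in tamoxifen. Of 20 fibroblast markers 3 rose and 4 fell in ethanol, and 17 rose in tamoxifen. Of 5 trophoblast markers tested 4 rose under each treatment (medians 0.64 and 0.88), and of 5 primitive endoderm markers 2 rose in ethanol and 4 in tamoxifen. The part of these in the time changes was not tested.

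Prpf31 fell most with time, by 0.78 ± 0.06 (adjusted p = 4.61e-06) in ethanol and by 0.85 ± 0.06 (adjusted p = 3.62e-06) in tamoxifen, to 0.570 and 0.540 of the 48 h mean. Prpf38b fell by 0.61 ± 0.06 and by 0.52 ± 0.06, Snrpb2 by 0.54 ± 0.06 and by 0.44 ± 0.06, and Prpf19 by 0.50 ± 0.06 and by 0.35 ± 0.06. All libraries of these 4 genes were lower at 72 h than at 48 h under the same treatment. Prpf40b rose, by 0.51 ± 0.07 in ethanol and by 0.22 ± 0.07 in tamoxifen. In the LSm2-8 ring, Lsm2, Lsm3 and Lsm7 fell under both treatments, Lsm6 fell in ethanol, and Lsm4 rose under both. The Naa38 entry fell as well (-0.21 ± 0.08, adjusted p = 0.0328, and -0.27 ± 0.08, adjusted p = 0.012). Lsm5 rose by 0.62 ± 0.09 in tamoxifen (adjusted p = 0.000257) and had -0.04 ± 0.09 in ethanol. Snrnp48 did the converse, with a rise of 0.70 ± 0.08 (adjusted p = 7.35e-05) in ethanol and 0.18 ± 0.08 (adjusted p = 0.09) in tamoxifen. Each of these time changes shares its libraries with the tamoxifen comparisons and is not separate evidence. Snrnp200 and Lsm11 rose under both treatments, by 0.35 ± 0.06 and 0.34 ± 0.06, and by 0.47 ± 0.10 and 0.43 ± 0.10. In the Sm ring, Snrpf fell under both treatments, Snrpe and Snrpg fell in ethanol, and Snrpd3 fell and Snrpd2 rose in tamoxifen. Snrpb was called under neither treatment, with 0.05 ± 0.05 and 0.08 ± 0.05. Of the 25 genes called in ethanol, 18 kept their call under every alternative run, and of the 25 called in tamoxifen, 16 did. Those not kept include Lsm4, Lsm6, Snrpe and Snrpg in ethanol and Prpf40b, Snrpd2, Snrpd3 and Snrpf in tamoxifen.

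**Figure D4:**
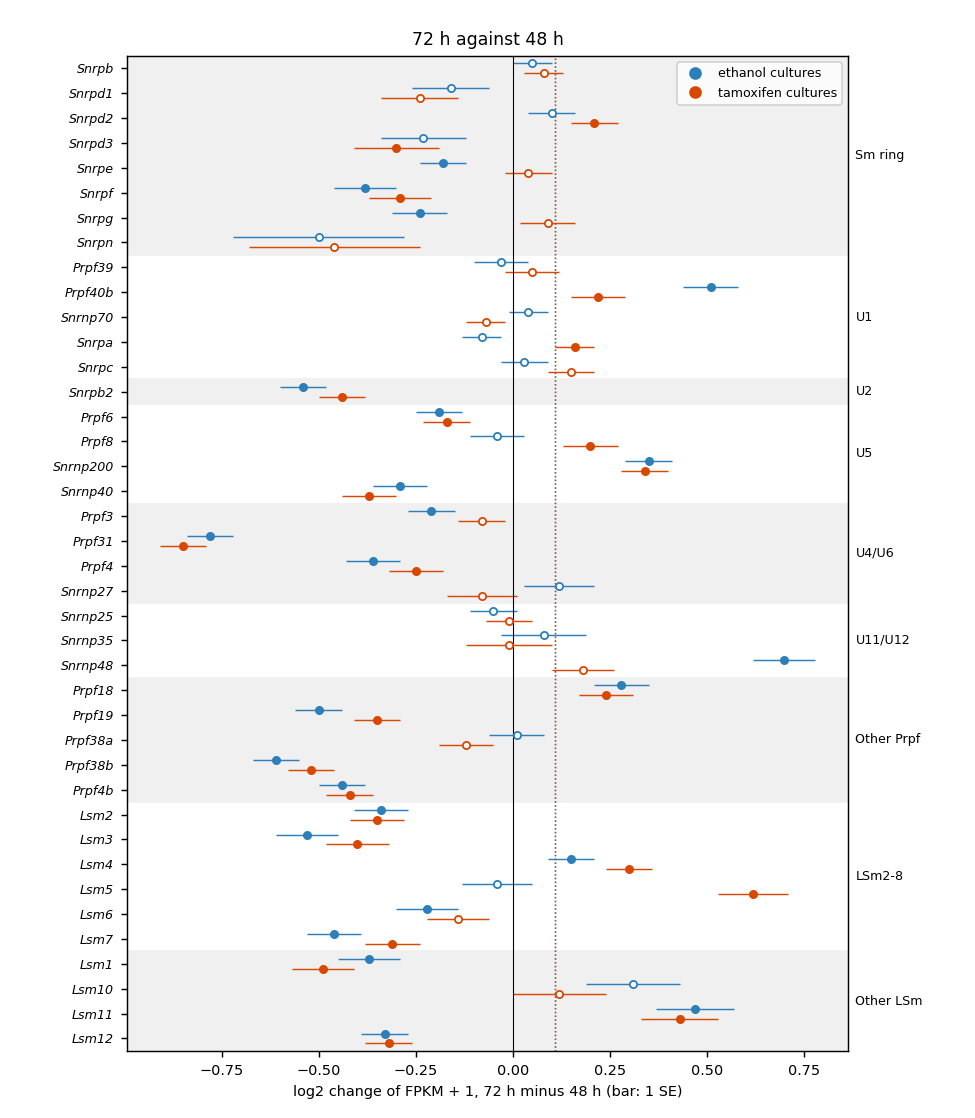
Change from 48 h to 72 h for 40 of the 41 genes (log2 of FPKM + 1, bar 1 SE) in ethanol (blue) and tamoxifen (orange) cultures; filled points are called. Dotted lines, which coincide, mark the median of all genes tested (0.11). Most filled points lie left of 0, with Prpf31 the farthest (-0.78 and -0.85).

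The other proteins of the splicing particles were read from lists of partners, 67 genes tested in all. With tamoxifen 4 rose and 3 fell at 48 h, and 13 rose and 10 fell at 72 h, with medians of 0.01 at both times. These are 5.97% and 4.48%, then 19.4% and 14.9%, of the 67, near the shares of all genes tested (7.88% and 4.47%, then 20.1% and 18.5%). Of 10 other U5 and tri-snRNP proteins, 2 rose at 72 h, the helicase Ddx23 (0.37, adjusted p = 0.00078) and Cd2bp2 (0.24), and 3 fell, among them Sart1 (-0.26), which helps bring the tri-snRNP to the spliceosome. Ddx23 also rose at 48 h (0.22), the 1 call of this list at that time. Of 12 spliceosomal helicases and second-step factors, 5 rose at 72 h, Ddx46 (0.51, adjusted p = 9.27e-05) and Dhx16 (0.33) among them, and 2 fell, Ddx41 (-0.52) among them. At 48 h 2 of this list rose, Ddx46 (0.30) and Dhx16 (0.24), and 2 fell, Ddx41 (-0.32) among them. Ddx46 is the helicase that acts on the U2 snRNP during its binding to the branch point. Of 15 proteins of the Prp19 and intron-binding complexes, Aqr (0.28) and Cwc15 (0.19) rose and Bcas2 (-0.41) fell at 72 h, and Bud31 (-0.42, adjusted p = 0.00156) was the 1 call at 48 h. Of 6 minor spliceosome proteins Zrsr2 (0.21) rose and Rnpc3 (-0.33), a U11/U12 protein like Snrnp48, fell at 72 h, and Pdcd7 (0.27) rose at 48 h. Of 8 mRNA decay partners of the LSm1-7 ring, Edc3 (0.24) and Edc4 (0.19) rose and Xrn1 (-0.50) fell at 72 h.

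Of 16 assembly and import genes, whose median change was -0.04 at both times, 3 were called with tamoxifen, all at 72 h. Smn1, which encodes the survival of motor neuron protein that loads Sm rings on RNA, rose by 0.29 (adjusted p = 0.0036), while Gemin6 (-0.40, adjusted p = 0.00172) and the Sm methyltransferase Prmt5 (-0.17, adjusted p = 0.0429) fell. From 48 h to 72 h, 31 of the 67 partners fell and 11 rose in ethanol (46.3% and 16.4%, against 19.2% and 38.0% of all genes tested), and 30 fell and 9 rose in tamoxifen (44.8% and 13.4%, against 19.6% and 37.5%). By list, falls in ethanol and tamoxifen numbered 10 and 13 of the 16 assembly genes, 7 and 5 of the 10 U5 and tri-snRNP proteins, 8 and 7 of the 15 Prp19 and intron-binding proteins, and 6 and 5 of the 12 helicases and second-step factors. In the remaining lists no gene was called lower. Rises there numbered 5 and 4 of the 8 decay partners, and 3 and 1 of the 6 minor spliceosome proteins. Of all genes tested, 38.0% and 37.5% rose. Clns1a, the chaperone that holds Sm proteins before ring assembly, fell by 0.67 in ethanol and by 0.60 in tamoxifen.

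The authors' deposited tables give a second set of calls on the same libraries from read counts, and for the 41 genes no gene was called in opposite directions. At 48 h the deposited table has 2 of the 41 higher and 9 lower with tamoxifen, against 6.62% and 5.31% of its genes. These include all 7 limma calls, and Lsm4, Lsm7, Snrpd3 and Snrpf are lower in the deposited table alone. Snrpb is barely under the threshold there at 48 h (0.17, adjusted p = 0.0499, against a change of 0.26 in limma). Its deposited change at 72 h is 0.32 (adjusted p = 1.01e-05). At 72 h the authors' deposited table has 5 higher and 10 lower, against 16.5% and 15.5% of its genes. Prpf39 and Snrnp70 were called in limma alone, and Prpf38a, Snrnp27 and Snrpf were called lower in the deposited table alone. Snrnp48 has a log2 change of -0.72 in the authors' deposited table at 72 h, and Lsm2 one of -0.48 at 48 h and of -0.33 at 72 h. Leaving out Snrpn, the changes in limma and in the authors' deposited table differed by a median of 0.03 at 48 h and 0.05 at 72 h. The largest gaps were 0.16 (Snrpd3, 48 h) and 0.19 (Prpf39, 72 h, 0.37 in limma and 0.18 in the deposited table).

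**Figure D5:**
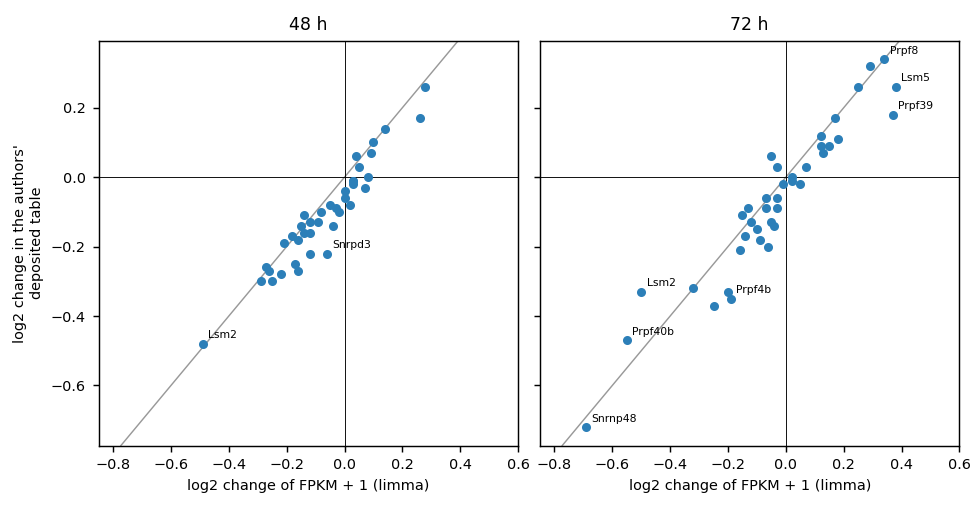
Log2 change with tamoxifen in limma (horizontal) against the authors' deposited table (vertical) at 48 h and 72 h; each point is 1 of 39 genes, Snrpn left out, and the grey line marks equal values. Points follow the line, with Prpf39 below it and Lsm2 above it at 72 h.

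Many of these genes have near-identical pseudogenes, which can share their reads. A pseudogene aligned over at least 200 bases at 95% identity or more was found for 13 of the 41 genes: 9 of the 14 Sm and LSm2-8 ring genes and 4 of the other 27. Among the genes called with tamoxifen these include Lsm5, Prpf19 and Snrpg, whose values are uncertain to that extent. None was found for Lsm2, Snrpb, Snrnp48, Prpf8, Prpf31, Prpf38b, Prpf39, Prpf40b, Prpf4b or Snrnp70. Snrpa and Snrpf also overlap neighbouring genes in the tables (BC024978 and Ccdc38). In the authors' coordinates (mm9) Lsm2 lies at chr17:35118799-35122838, Snrpb at chr2:129997372-130005100, Snrnp48 at chr13:38296808-38319532, Lsm5 at chr6:56651057-56654693 and Prpf31 at chr7:3581587-3594086, each span covering the whole gene.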

How the data were processed

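Polyadenylated RNA from 8 libraries was sequenced as paired reads. The submitters' processing notes name TopHat 1.4.1 and BWA 0.6.1, DESeq, HTSeq, and Cufflinks 1.3.0, with the build mm9 and no roles. The authors deposited FPKM per gene for each library, and tables comparing treatments at each time with group means (a signal of scaled counts), a log2 change (its sign was turned here to tamoxifen over ethanol) and a p-value adjusted by the authors. The FPKM give no counts, so depth is known only as implied fragments.

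Of 20789 entries, 209 with a status other than OK in any library were left out, and each identifier kept its entry of highest mean, leaving 20388. Genes with FPKM of at least 1 in at least 2 libraries (11867) were tested with limma 3.58.1 (R 4.3.3) on log2(FPKM + 1), 1 mean per group, empirical Bayes with trend, 4 residual degrees of freedom, two-sided, Benjamini-Hochberg over all genes, called at 0.05. A fold on this scale understates the change of low genes. The fit was tested on simulated data. Starts in the deposited tables count from 0, and 1 was added. Pseudogene copies were sought with blastn 2.17.0 in GENCODE transcripts, and promoters taken from RefSeq. Alternatives were other pseudocounts, no filter, median-ratio scaling, no trend, only the groups compared, a replicate block, and each library left out.

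The members and lists were chosen with earlier results of these data known. Values per library are given for members called with tamoxifen (at most the 12 largest per contrast where more were called) and for 14 snRNP genes chosen with the lists; of each partner list, up to 3 called genes of smallest p are named. Naa38, Snurf and Fkbp3 were named after their values were seen. 1 of the 41 genes stays in all counts and medians but is not reported here by name or in the plots.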

Additional observations from a re-analysis of the deposited data

Results flagged for a closer look

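The test of the difference between the 48 h and 72 h tamoxifen changes called Lsm5 (0.65 ± 0.13 on the log2 scale, adjusted p = 0.0283 by limma) and Snrnp48 (-0.52 ± 0.12, adjusted p = 0.0441). Neither call was kept under every alternative run. Of all genes tested, 2.00% were called higher and 1.45% lower by the same test. Lsm5 lay lower in both 48 h tamoxifen libraries and higher in both 72 h ones, and Snrnp48 was highest in the 2 ethanol libraries of 72 h.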

How the results depend on the processing

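Of 610 values of single genes under an alternative, 570 stayed on their side of the threshold, 33 lost a call and 7 gained one. No called value changed sign. Of the 570, 8 values that were called neither before nor after took the other sign, the largest at 0.05: Snrnp200 at both times with median-ratio scaling (-0.01) or with 1 library left out (-0.01 and -0.02), Prpf19 at 48 h (-0.02) and Snrpd3 at both times (0.03) with 1 library left out, and Snrpn at 72 h summed with Snurf (0.05). At 48 h median-ratio scaling gave 8 falls and a fit without a trend 3, against 5; leaving out 1 library gave 0 to 2 rises and 1 to 6 falls. At 72 h leaving out 1 library gave 4 to 6 rises and 5 to 8 falls, against 6 and 8. For the difference between times the rise and the fall both went to 0 with no filter or with no trend, the fall also went to 0 with log2(FPKM + 0.1), and leaving out 1 library gave 0 to 1 of each. In tamoxifen cultures over time, scaling gave 4 rises against 9. The cause of these shifts was not tested. With the replicate block, 2 rose and 6 fell at 48 h and 7 rose and 9 fell at 72 h; same-numbered libraries did not deviate together (correlations of 0.0024 at 48 h and -0.0615 at 72 h), so the numbers are not shown to pair them. Where 1 library was left out, the lone library of its group was assumed to vary like the other groups.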
